A study of Mus musculus with 6 samples.

Results

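Pluripotent/PGC was the annotated name of 1 cell cluster in a single-cell RNA-seq series on mouse stembryos, aggregates of embryonic stem cells that elongate after a pulse of the Wnt agonist Chiron and then activate Hox genes in sequence. PGC stands for primordial germ cell. The members were taken by that annotation alone, and numbered 92 of the 26968 cells in the table, all of them from cluster 11. All groups shared the genotype, wild-type mES cells (EmbryoMax 129/SVEV in the study's methods), and the same Chiron pulse. Whole stembryos were collected at 96 h (2 libraries) and at 120 h (2 libraries), and stembryos of 120 h were also cut into an anterior and a posterior part (1 library each). Each library held a pool of many stembryos, and at 120 h those that had not elongated were discarded, so that the members describe pools of selected aggregates and not single ones. Replicate 1 of both times formed 1 batch, replicate 2 formed a second batch with a later version of the 10x chemistry, and the cut parts formed another.

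In the embryo, pluripotent cells of the epiblast carry a regulatory network built around Pou5f1 (OCT4), Sox2 and Nanog. Naive pluripotency, the state closest to the early blastocyst and to stem cells kept in culture, adds factors such as Zfp42, Klf2, Klf4, Esrrb and Tfcp2l1, while formative and primed cells turn to Otx2, Fgf5 and Pou3f1. Primordial germ cells are set aside from the epiblast under BMP signals, through Prdm1, Prdm14 and Tfap2c, and they keep or regain much of the pluripotency network. This shared network is why the germ-line genes Dppa3, Prdm1, Prdm14, Tfap2c, Nanos3 and Dnd1 were examined apart from the 9 genes that mark the cluster: Dppa5a, Zfp42, Utf1, Tdh, Tdgf1, Klf2, L1td1, Morc1 and Pou5f1.

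The members were rare in every library. They made up 0.223% of the cells of 96 h replicate 1 (11 of 4938, exact binomial 95% interval 0.111 to 0.398) and 1.32% of 96 h replicate 2 (35 of 2649, 0.922 to 1.83). At 120 h they were 0.103% of replicate 1 (5 of 4867, 0.0334 to 0.24) and 0.485% of replicate 2 (13 of 2683, 0.258 to 0.827). Within both times the replicate of the second batch held the larger share, and the intervals of the 2 replicates did not overlap. Among the cut stembryos the posterior part held 28 members among 7887 cells (0.355%, 0.236 to 0.513), whereas the anterior part held 0 of 3944, which allows a share of up to 0.0761%. The intervals cover counting error only, and each part was a single library, so the difference between the parts has no replicate check. The mean share was 0.772% ± 0.777 (SD, n = 2) at 96 h and 0.275% ± 0.194 (n = 3, with both cut parts counted as 1 sample) at 120 h, which an exact two-sided permutation test did not separate (p = 0.6, the smallest this design allows being 0.2). Without 96 h replicate 2 the difference was 0.0519 percentage points in favour of 120 h, against -0.50 with it. That omission leaves the second batch, with its larger shares, at 120 h only. Within each replicate number the share was lower at 120 h, with 0.103% against 0.223% in replicate 1 and 0.485% against 1.32% in replicate 2. In 96 h replicate 2, NMPs B, a class the authors named for neuromesodermal progenitors, took 1632 of the 2649 cells.

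The members were deeply sequenced cells. Their median UMI count (unique molecular identifiers, the molecules counted in a cell) exceeded that of the other cells of the same library by between 1.1 and 1.67 times, and the median over all members was 15024. Of the 92 cells, 27 lay above 1.5 times the mean of their library. Against doublets, the study checked the dissociated suspensions and set an upper limit on UMIs, and no doublet caller was run here. Of 26893 distinct barcodes, 75 occurred in more than 1 library, among them those of 2 members. The levels below are CPM, the UMIs of a gene summed over the members of a library and scaled to the same total in each library, always in the order 96 h replicate 1, 96 h replicate 2, 120 h replicate 1, 120 h replicate 2 and 120 h posterior part. Means, SDs and log2 ratios (of CPM + 1, members over the other cells of the same library) are over the 4 libraries with at least 10 members, which leaves out 120 h replicate 1. Since the cluster was built from the expression of these same cells, its differences from other cells are described and not tested.

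The 9 markers were higher in the members than in the other cells of all 5 libraries. Dppa5a, a small RNA-binding protein of pluripotent cells (chromosome 9, 78367052 to 78368199, GRCm38.p6), was detected in 92 of 92 members, at 2851, 4293, 5130, 6363 and 7410 CPM, against 2.21, 48.6, 0.972, 2.01 and 1.18 CPM in the other cells. The members of each library lay above the other cells of all libraries. Pou5f1, the POU factor at the core of the network (chromosome 17, 35506032 to 35510777), was found in 88 members and stood at 978, 643, 814, 605 and 1156 CPM. In the other cells it was at 6.12, 44.5, 1.77, 1.59 and 2.24 CPM, highest in 96 h replicate 2, whose NMPs B cells held 57.8 CPM of Pou5f1 and 61.5 CPM of Dppa5a.

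The remaining 7 markers each averaged under 1 CPM in the other cells. Zfp42 (REX1), a zinc-finger protein used as a mark of naive cells, had 322, 245, 363, 533 and 461 CPM in the members, and 58 UMIs in all 26876 other cells together. Klf2, a Krüppel-like factor of the naive network, averaged 366 ± 78.2 CPM in the members and 0.821 ± 0.336 CPM in the other cells (SD, n = 4). It had the most UMIs outside the cluster of these 7, with 306 in 291 other cells against 615 in 75 members. Utf1, a chromatin factor, averaged 310.7 ± 89.6 CPM, and Tdh, the threonine dehydrogenase of mouse stem cells, 292 ± 118 CPM. L1td1, an RNA-binding protein derived from a LINE-1 element, averaged 281 ± 102 CPM. Tdgf1 (CRIPTO), the co-receptor of NODAL, averaged 234 ± 99.5 CPM with 18 UMIs in all other cells. Morc1, which is needed for transposon silencing in male germ cells, averaged 157 ± 59.1 CPM and was found in 68 members and in 20 other cells. The log2 ratio of the 9 markers had a median over the libraries of between 7.46 (Morc1) and 10.42 (Dppa5a), and each exceeded every other class in all 4 libraries.

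**Figure D1:**
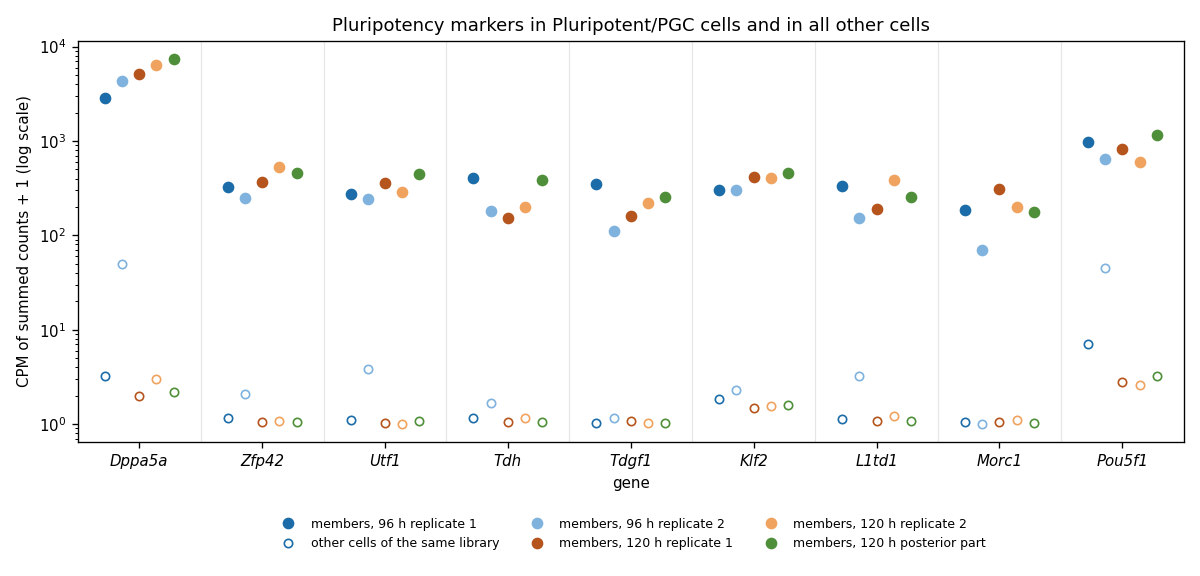
Levels of the 9 markers as CPM of summed counts + 1 on a log axis. Filled points are the members of each of 5 libraries, and open points of the same colour are all other cells of that library; the filled points lie above the open ones for every gene, and the highest open points are Dppa5a and Pou5f1 in 96 h replicate 2.

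Zfp42 is shown with its promoter because it is a marker whose upstream sequence held the octamer bound by POU factors. The 250 bases before its start (chr8:43307010-43307259, GRCm38.p6, minus strand, from RefSeq, written 5′ to 3′) read as follows, with the octamer in capitals beginning 186 bases before the start.
Zfp42: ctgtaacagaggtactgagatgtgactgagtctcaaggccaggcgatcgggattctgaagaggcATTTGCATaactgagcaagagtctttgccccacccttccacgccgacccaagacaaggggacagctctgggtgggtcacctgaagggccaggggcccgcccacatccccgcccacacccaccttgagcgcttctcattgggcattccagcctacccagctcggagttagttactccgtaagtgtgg
RefSeq promoters were at hand for 6 of the 9 markers and 2 of the 6 germ-line genes. Searched on both strands, the octamer ATGCAAAT occurred before 1 of those 6 markers and in 1.6% of all 32851 promoters of this length. A SOX motif, CATTGTT, occurred before 1 of the 6, at the second listed start of Pou5f1, and in 3.29% of all promoters. The E-box CACGTG occurred before none of the 6 markers and in 6.02% of all. These are matches of letters and not measured binding.

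Single markers were seen in cells outside the cluster, whereas several in the same cell were rare there. At least 1 of the 9 had a UMI in 3080 of the 26876 other cells, with Pou5f1 in 1890 and Dppa5a in 1068 cells, and at least 2 had one in 393. All 9 had a UMI in 40 members and at least 5 in 78, while 2 of the other cells, both NMPs B of 96 h replicate 2, reached 5. In the other direction 14 members had 1 to 4 markers, and 10 of these came from 96 h replicate 2. The median of the 14 was 11515 UMIs, against 11379 in the 38 members with 5 to 8 markers and 20913 in the 40 with all 9. These medians pool libraries of unlike depth. Within 96 h replicate 2 the median was 11515 UMIs in the 10 members with 1 to 4 markers, 8825 in the other 25 and 8870 in NMPs B.

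Within 96 h replicate 2 the 10 members with 1 to 4 markers carried more of the genes of the neighbouring progenitors. Their summed Hox level was 1062 CPM, against 364 CPM in the other 25 members and 1778 CPM in NMPs B of the same library. Hoxb1 stood at 295, 52.6 and 148 CPM in these 3 sets, and Cdx1, a caudal-type activator of Hox genes, at 371, 118 and 238 CPM. Fst, an antagonist of activins, reached 835 CPM in the 10 cells, above both the 25 other members (167 CPM) and NMPs B (130 CPM). Dppa5a ran the other way, with 1729, 5627 and 61.5 CPM. The 10 cells were thus high for Fst and Cdx1 but not at the Dppa5a level of NMPs B, and whether mixed droplets took part in this was not tested. The number of markers used here was itself part of what formed the cluster.

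**Figure D2:**
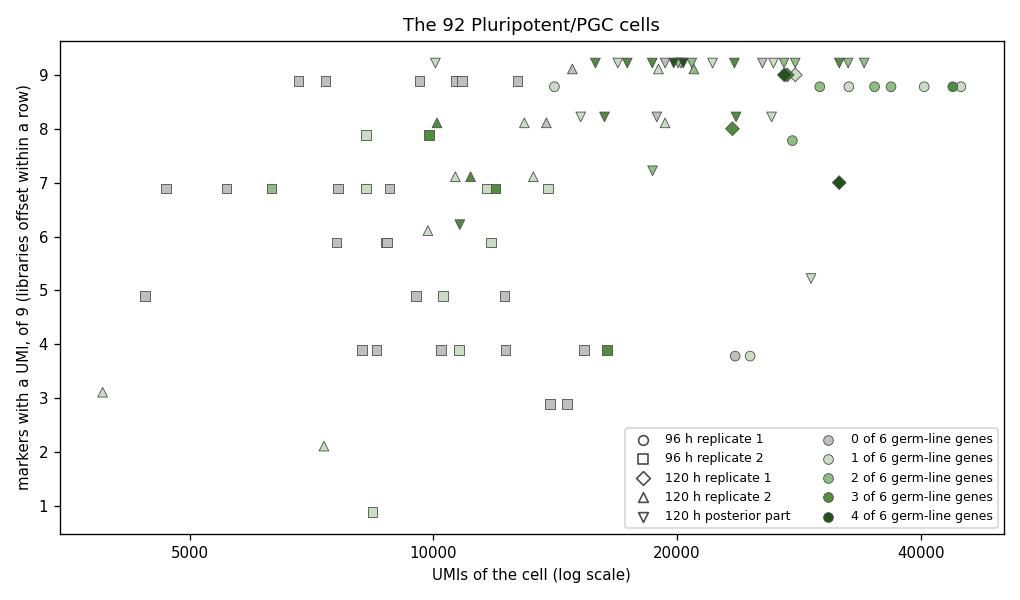
Each of the 92 members by its UMIs (log axis) and the number of the 9 markers with a UMI, with libraries as symbols and the number of germ-line genes as shade. The cells of 96 h replicate 2 lie at low UMI counts and hold most of the members with few markers and with no germ-line gene, and the darkest cells lie at 7 to 9 markers.

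The germ-line genes were found in a part of the members and at far lower levels. Tfap2c, which encodes AP-2γ and acts early in germ cell specification, had UMIs in 41 members (44.6%), at 56.6, 17.3, 174, 83.8 and 75.5 CPM. The other cells held between 0.128 and 1.42 CPM of it, so that members and other cells did not overlap. Dppa3 (STELLA), which protects the maternal genome from demethylation and is a classic mark of germ cells and of naive stem cells, was detected in 26 members (28.3%), at 42.4, 37.5, 50.9, 138 and 72.2 CPM. Only 2 UMIs of Dppa3 were counted in all other cells of the series, which made it the germ-line gene with the fewest UMIs outside the cluster.

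Nanos3, an RNA-binding protein that germ cells need to survive migration, was detected in 23 members, at 22.6, 5.77, 43.6, 12 and 36.1 CPM. It was less private, with 542 UMIs outside the cluster. Dnd1, which binds RNA in germ cells and guards it from microRNAs, was detected in 19 members, at 2.83, 17.3, 36.3, 29.9 and 29.5 CPM. Both genes were higher in the members than in the other cells of each library. For Dnd1 the members of 96 h replicate 1 had 1 UMI. The highest Dnd1 level in another class was 11.1 CPM, in the 10 NMPs B cells of 120 h replicate 2. Zfp42 had the same value there, and a level this low in 10 cells rests on very few UMIs.

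Prdm1 and Prdm14, the PR-domain regulators that start the germ cell programme in the embryo, were the least detected of the 6. Prdm1 (BLIMP1) had 12 UMIs in 9 members, at 0, 2.89, 29.1, 18 and 6.57 CPM, and it also appeared in other classes, with up to 10.9 CPM in endoderm cells of the posterior part. Members and other cells overlapped for Prdm1, since 96 h replicate 1 had 0 UMIs. Prdm14 had 3 UMIs in 2 cells of the posterior part and 0 in the other 4 libraries of members. Each of the 6 had a UMI in at least 2 members, and 3 of the 6 reached the mean of 10 CPM asked of a gene to be compared over the table.

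At equal depth the shares were smaller. After thinning each cell to 5000 UMIs, 34 of 89 members kept at least 1 germ-line gene (38.2%, 28.1 to 49.1), against 63 of 92 (68.5%) before thinning, with 3 shallower members left out. The thinned shares were 19.1% for Tfap2c, 18% for Dppa3, 7.87% for Nanos3, 6.74% for Dnd1 and 4.49% for Prdm1. Prdm14 was at 0 of 89, which allows up to 3.37%. Somite cells, a class that should lack these genes, gave 0.163% for Tfap2c, 1.27% for Nanos3, 0.0816% for Dnd1 and 0.122% for Prdm1 over 2450 cells thinned alike, and 0 for Dppa3, which allows up to 0.122%. Before thinning, the median depth was 15024 UMIs in the members and 13772 in the somite cells. The 5 genes still detected had larger shares among the members than in the somite background.

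**Figure D3:**
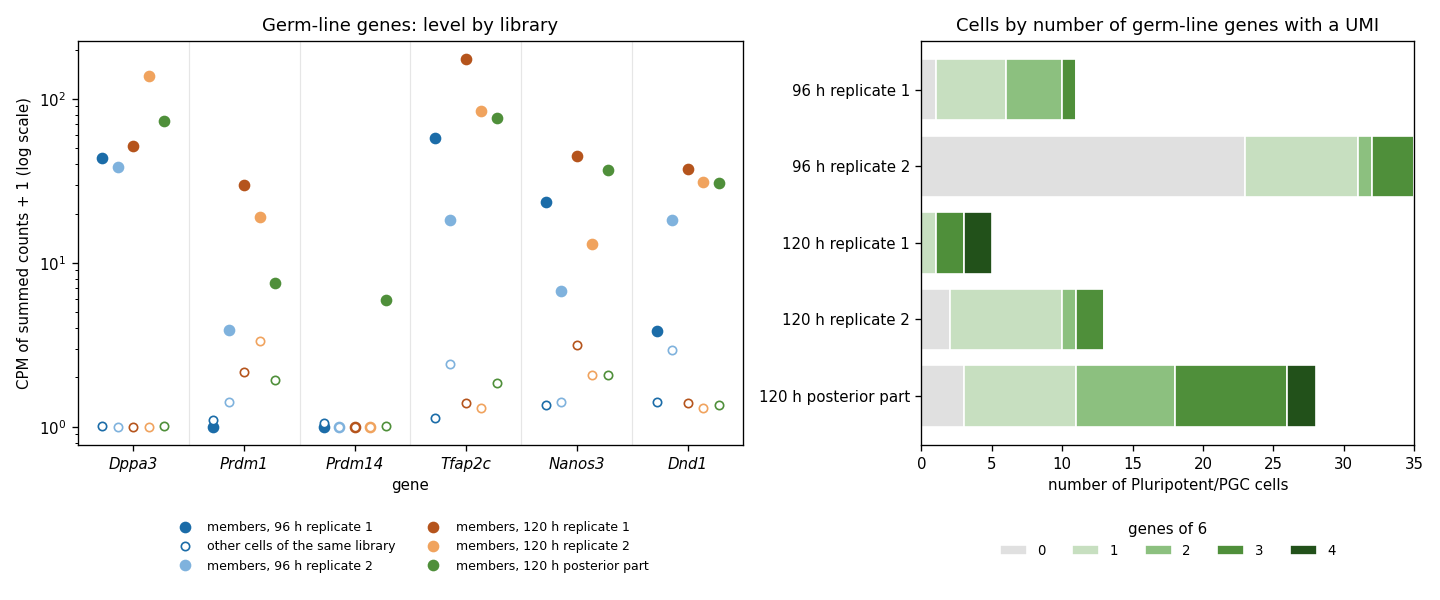
Left, CPM of summed counts + 1 (log axis) of the 6 germ-line genes in the members (filled) and in all other cells (open) of each of 5 libraries. Right, number of members in each library by how many of the 6 genes had a UMI; 96 h replicate 2 holds 23 of the 29 cells with none, and cells with 4 genes occur at 120 h.

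Some members held several germ-line genes. At least 2 of the 6 had UMIs in 33 members, at least 3 in 20 and 4 in 4 members, and no cell had more. Outside the cluster 16 of 26876 cells had 2, and no cell had 3. Of the 41 members with Tfap2c, 16 had Nanos3 (found in 23), 12 had Dppa3 (found in 26) and 12 had Dnd1 (found in 19). Of the 9 members with Prdm1, 7 also had Tfap2c. The overlaps were not compared with those that the single-gene counts would give by themselves. Dppa3 and Prdm1 shared 2 cells. The cells with 2 or more genes were also the deepest, with a median of 20975 UMIs against 10218 in the 29 cells with none, and the part that depth plays in these counts was not separated from the sharing itself.

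By library and before thinning, at least 3 germ-line genes were seen in 1 of 11, 3 of 35, 4 of 5, 2 of 13 and 10 of 28 members. These counts mix libraries of unlike depth. At 5000 UMIs, at least 2 genes remained in 2 of 11, 2 of 33, 1 of 5, 2 of 12 and 6 of 28 members. After thinning to 5000 UMIs, at least 1 gene remained in 54.5% of the members of 96 h replicate 1 (6 of 11, exact interval 23.4 to 83.3) and 21.2% of 96 h replicate 2 (7 of 33, 8.98 to 38.9). At 120 h the shares were 60% (3 of 5, 14.7 to 94.7), 50% (6 of 12, 21.1 to 78.9) and 42.9% (12 of 28, 24.5 to 62.8). The low value of 96 h replicate 2 therefore remained at equal depth, although its interval overlapped those of all other libraries.

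Genes of the pluripotency network were detected in the cells with and without germ-line genes. Nanog was at 120 CPM in the 29 members without a germ-line gene, 117 CPM in the 30 with 1 and 127 CPM in the 33 with 2 or more. Sox2 was at 185, 264 and 306 CPM in the same 3 sets, Tdh at 209, 268 and 376.5 CPM, Utf1 at 281, 319 and 378 CPM, and Pou5f1 at 800.3, 775 and 1078 CPM. Ifitm1, an interferon-induced membrane protein also known as an early germ cell mark (Fragilis family), was at 218, 709 and 923 CPM. Ifitm3 was at 134, 221 and 283 CPM. Nanog thus differed little between the sets, while Sox2, Tdh, Utf1 and both Ifitm genes were higher in the sets with germ-line genes. Of the 29 cells without such a gene, 23 came from 96 h replicate 2, so the set and the library largely overlapped. The other 12 members of that library had at least 1 such gene, and the levels were not compared within the library. Ifitm1 was no mark of the cluster, since the other cells held 439 to 1003 CPM of it.

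Of the wider pluripotency lists, the general and the naive genes were mostly higher in the members, whereas most formative and primed genes did not reach the same rule. Over 7898 genes with a mean of at least 10 CPM, 278 (3.52%) were over 2-fold higher in the members in all 4 libraries and 259 (3.28%) over 2-fold lower. The filter lets in genes that are high in the members alone, so the list counts below are a description. Of 18 general pluripotency genes, 14 were among those higher and 0 among those lower. Rif1, a replication-timing and telomere factor, averaged 375 ± 101 CPM in the members and 145 ± 33.2 CPM outside. Sox2, the partner of OCT4, is also a neural factor, and it was at 218, 211, 174, 281 and 345 CPM in the members while spinal cord B reached 323 CPM. Lin28a, Sall4 and Trim71 were broadly expressed, with median log2 ratios of -0.30, 0.40 and 0.02.

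Of 16 naive genes, 12 were compared and 10 were over 2-fold higher in all 4 libraries. Dnmt3l, the cofactor of the de novo DNA methyltransferases, averaged 70.8 ± 32.7 CPM in the members and 0.0147 ± 0.0197 CPM outside. Spp1 (osteopontin) was at 5.66, 20.2, 58.1, 77.8 and 131 CPM, with the 3 libraries of 120 h above the 2 of 96 h. Esrrb, a nuclear receptor of the naive network, was at 11.3, 14.4, 7.27, 47.9 and 26.3 CPM and was detected in 26 members.

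Of 14 formative and primed genes, 10 were compared and 1 was higher by this rule, Etv5, an ETS factor under FGF signalling, at 141 ± 19.5 CPM in the members and 41.6 ± 11.1 CPM outside. Otx2, a homeobox factor of the primed epiblast and the head, was at 82, 0, 29.1, 47.9 and 27.9 CPM, with 0 UMIs in the 35 members of 96 h replicate 2. It had 2 UMIs in all other cells of the series, and a median log2 ratio of 5.23, higher in 3 of the 4 libraries. Fgf5 and Foxd3 were under the level to be compared, but Fgf5, seen in 7 members, was higher in all 4 libraries (median log2 ratio 2.54), and Foxd3, seen in 8, in 3 of the 4 (2.93). Pou3f1, seen in 8 members, was higher in 1 of the 4. Dnmt3b and Dnmt3a, the de novo methyltransferases, averaged 136 ± 37.8 and 72 ± 27.5 CPM, with log2 ratios of 1.30 and 0.68.

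Genes of the NODAL pathway stood out by ligands and co-receptor. Of 9 genes, 5 were compared and 3 were higher by the rule, namely Tdgf1, Gdf3 and Nodal. Nodal itself was at 33.9, 37.5, 58.1, 53.9 and 91.9 CPM in the members, against 0.435 ± 0.381 CPM outside. Lefty1, an inhibitor of NODAL, was at 0, 86.6, 29.1, 71.8 and 90.3 CPM and was detected in 17 members. Acvr2b, an activin receptor, was lower than outside, with a log2 ratio of -1.35.

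Of 11 genes of the LIF and BMP pathways, 7 were compared, and 0 were higher and 2 lower by the rule. Bmp4, a BMP ligand under the level to be compared, averaged 12.2 ± 5.36 CPM in the members and 2.44 CPM outside, and exceeded every other class in all 4 libraries, on 18 UMIs in 13 members. Id1 and Id3, targets of BMP signals, were at 20.4 ± 3.51 and 93.9 ± 20.8 CPM in the members and at 73.6 ± 32.4 and 129 ± 21.9 CPM outside. Bmpr1a and Smad1 had log2 ratios of -0.61 and -0.92. Of 11 genes of DNA methylation, 10 were compared, 3 were higher and 1 was lower. Dnmt1, Uhrf1 and Trim28, which maintain methylation and act in all dividing cells, had log2 ratios of -0.11, -0.28 and 0.47.

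A list of other early germ cell genes gave a mixed picture. Of 15 genes, 14 were in the table, 6 were compared and 2 were higher by the rule. One of these was Alpl, the tissue-nonspecific alkaline phosphatase long used to stain germ cells and stem cells, at 126 ± 29.7 CPM in the members and 23.8 ± 11.5 CPM outside. The other was Dppa2, at 71.9 ± 18 CPM, which pluripotent cells also express. Kit, the receptor that germ cells use during migration, was seen in 11 members, with 1 UMI in each, and was higher in them than in the other cells in 120 h replicate 1 and the posterior part (14.5 and 8.21 CPM, against 4.83 and 3.41 CPM) but lower in the other 3 libraries. Cxcr4, the chemokine receptor of migrating germ cells, had 0 UMIs in the 1614047 UMIs of all members, which allows up to 1.86 CPM, while the other cells averaged 13.3 CPM. The X-linked homeobox gene Rhox5 was at 0, 26, 36.3, 5.99 and 112 CPM. At least 2 of Rhox5, Rhox6 and Rhox9, whose counts could be affected by similar gene copies, were found in 3 members of the posterior part and in no other cell of the series, which was noted after the values were seen.

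Genes of later germ cells were low but present. Of 16 genes, 15 were in the table and 2 reached the level to be compared, with Morc1 higher and Tdrkh lower. Hormad1, of the meiotic chromosome axis, averaged 19.4 ± 7.11 CPM in the members and 0.0242 ± 0.0194 CPM outside, and was detected in 19 members. Ddx4 (VASA), the RNA helicase of germ granules, averaged 15.7 ± 9.75 CPM and was detected in 16. Stag3, a meiotic cohesin subunit, averaged 13 ± 8.94 CPM. Dazl, which licenses germ cells for sexual differentiation, had UMIs in 10 members and was at 0 in 2 of the 5 libraries. Hormad1, Ddx4 and Stag3 exceeded every other class in all 4 libraries. Of the 9 genes of the 2-cell-like state, 0 were in the table.

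Beside the fixed lists, 12 genes ranked highest by their distance to the next class. Of 2157 genes with a UMI in at least 30% of the members and at least 50 CPM in each of the 4 libraries, 241 exceeded every other class in all 4, and 20 did so at least 4-fold. Among the 12 highest, 3 belong to the pluripotency lists. Nanog, the homeobox factor of the core network, was at 73.5, 107, 167, 138 and 144 CPM and was detected in 66 members. Gdf3, a TGFβ ligand, averaged 86.1 ± 25.5 CPM, and Dppa4, the chromatin partner of Dppa2, 137 ± 30.7 CPM.

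The other 9 had more varied roles. Hspb1, a small heat shock protein, was at 246, 476, 589, 826 and 473 CPM in the members and at 2.6 ± 3.74 CPM outside. The metallothioneins Mt1 and Mt2, which bind zinc and copper, averaged 1934 ± 980.1 and 834 ± 414 CPM, against 40 ± 39.4 and 17.2 ± 20.4 CPM outside. Trap1a, an X-linked tumour antigen gene, averaged 220 ± 70.8 CPM, and Mylpf, the regulatory light chain of fast muscle myosin, 203 ± 103 CPM. Endoderm cells came closer than the outside mean in 96 h replicate 2. There 11 of them held 231 CPM of Hspb1, 494 of Mt1, 147 of Mt2 and 94.6 of Trap1a. The members of that library held 476 CPM of Hspb1, 1013 of Mt1 and 459 of Mt2. In the posterior part, endoderm held 1.88, 54.6, 27.1 and 0 CPM of the same 4 genes. Rbmxl2, an RNA-binding protein of spermatogenesis, averaged 229 ± 92.3 CPM. Triml2, a tripartite-motif relative, and the predicted gene Gm32885 averaged 81 ± 8.88 and 72.6 ± 8.39 CPM. Zfp988 averaged 58.7 ± 6.08 CPM and belongs to a zinc-finger family with similar copies, so its count is uncertain.

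The 6 genes with the lowest ratios of members to other cells were Hoxb5os, Hes7, Rspo3, Id2, Ncam1 and Mllt3, with median log2 ratios of -5.55 to -3.52. Hoxb5os, a transcript of the HoxB cluster, was at 19.8, 0, 7.27, 0 and 18.1 CPM in the members and averaged 237 ± 66.5 CPM outside. Its strand partner shares the locus, so the counts of both could be mixed where the counting ignores strand. Hes7, the oscillator of the segmentation clock, was at 14.1, 8.66, 0, 0 and 23 CPM, against 179 ± 95.9 CPM outside. Rspo3, a Wnt potentiator of the presomitic mesoderm, was at 56.6, 11.5, 50.9, 5.99 and 6.57 CPM, against 262 ± 123 CPM. Ncam1, a neural adhesion molecule, averaged 17.1 ± 12.1 CPM in the members and 196 ± 103 CPM outside.

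Hox genes, the subject of the series, were low in the members while the rest of each library expressed them. Of 39 Hox genes, 37 were in the table and 9 had no UMI in any member. Of the 23 compared, 15 were over 2-fold lower in all 4 libraries and 0 were higher. The summed Hox level was 444, 603, 72.7, 228 and 233 CPM in the members, and 1710 to 2136 CPM in the other cells. The members of 96 h were thus above those of 120 h, and all lay below the other cells. At 5000 UMIs a member had a median of 1, 2, 0, 0 and 0 Hox UMIs, while another cell of the same libraries had 8 to 10. Hoxb9 was at 25.4, 14.4, 7.27, 12 and 32.8 CPM, against 228 CPM outside on average. Hoxb1 and Hoxb2, of the anterior end of the cluster, were at 8.48, 136, 0, 18 and 4.92 CPM and at 42.4, 150, 7.27, 23.9 and 9.85 CPM. Both were highest in 96 h replicate 2. There Hoxb2 was at 211 CPM in the 10 members with few markers and at 118 CPM in the other 25, and these 25 alone exceeded the members of every other library for both genes.

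**Figure D4:**
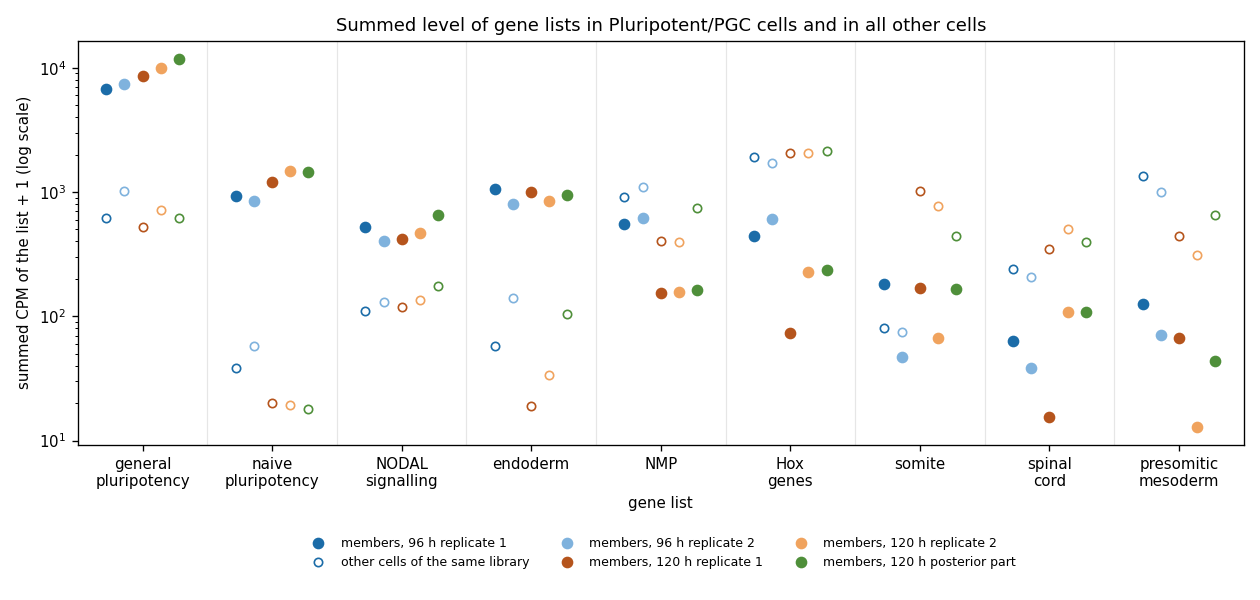
Summed CPM + 1 (log axis) of 9 gene lists in the members (filled) and in all other cells (open) of 5 libraries. The pluripotency, NODAL and endoderm lists are higher in the members, the Hox, NMP, spinal cord and presomitic mesoderm lists are lower, and somite genes are higher in the members of 96 h replicate 1 and lower in the others.

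The markers of other classes were also counted among the members. As the classes were formed from these same cells, the counts are a description and no check of the label. Of 8 presomitic mesoderm genes, 6 were compared and all 6 were over 2-fold lower, with a sum of 12 to 124 CPM against 311 to 1351 CPM outside. Of 9 NMP genes, 8 were compared, 2 were lower and 0 higher, and their sum was 153 to 614 CPM against 398 to 1092 CPM. Of 9 somite and 8 spinal cord genes, 6 of each were compared and 3 of each were lower. Their sums were 46.2 to 181 CPM and 14.5 to 108 CPM in the members, against 74.3 to 1025 CPM and 208 to 508 CPM outside. Tcf15, a somite factor, was an exception with 87.9 ± 55.2 CPM in the members and a log2 ratio of 0.50.

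The endoderm list went up in sum without its defining factors. Of 10 genes, 3 were compared and all 3 were higher, namely Trh, Epcam and Cldn6. Trh, the precursor of thyrotropin-releasing hormone, was at 749, 490.5, 523, 575 and 699 CPM in the members, against 15.9 ± 14.4 CPM outside. Epcam, an adhesion molecule of epithelia and of stem cells, was at 240.4, 251, 421, 228 and 194 CPM, against 35.2 ± 24.1 CPM. Of the defining factors, Sox17 was seen in 2 members, Foxa2 in 2, Foxa1 in 1, and Spink1 in 0. The sum of the list was 799 to 1058 CPM in the members and 18 to 139 CPM outside. The small lists of other lineages were low. Primitive endoderm genes summed to 0 to 82 CPM, genes of the trophectoderm to 14.5 to 206 CPM, of which Cdx2 was the only one compared, those of endothelium and blood to 5.77 to 29.9 CPM, and those of the primitive streak to 29.1 to 129.8 CPM.

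A single member carried most of the primitive endoderm signal. This cell of 96 h replicate 1 had UMIs of 6 of the 7 genes Gata6, Gata4, Sox7, Dab2, Pdgfra, Cubn and Sox17, 34 UMIs in all, while no other member had more than 1 of the 7. It held 4 of the 9 markers, 0 germ-line genes and 23591 UMIs in total. The cell was noted after its values were seen.

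The profiles of members were compared between libraries and with the other classes. Over the 7898 genes, the log2 levels of members of 2 libraries correlated with Pearson's r of 0.81 to 0.89. The nearest other class at 96 h was NMPs B, with r of 0.82 in replicate 1 and 0.84 in replicate 2. At 120 h it was spinal cord A in replicate 2 (r = 0.69) and endoderm in the posterior part (r = 0.79). In all comparisons but 2 the members of another library were nearer than any class of the same library. The exceptions were the members of both 96 h libraries, which were slightly nearer to NMPs B than to the members of 120 h replicate 2 (r = 0.81 and 0.83). The correlations run across genes and not across samples, genes are no independent replicates, and classes of few cells have noisier profiles.

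Between the times no gene passed the test in the members. edgeR's quasi-likelihood test on the sums of 96 h (2 libraries) against 120 h (replicate 2 and the posterior part, the 5 cells of replicate 1 being under the minimum of 10) called 0 of 4785 genes (0%) at a Benjamini-Hochberg adjusted p under 0.05. An unadjusted p under 0.05 was found for 202 of the 4785 genes, fewer than this threshold would pass by itself if no gene changed. DESeq2 called 3 genes. Of the fixed lists, 0 genes were called in the test, in either direction. The 3 genes with the lowest p were Fst, Cdx1 and Wfdc2. Fst was at 105, 395, 29.1, 5.99 and 21.3 CPM, which gave a log2 difference (120 h over 96 h) of -3.82 ± 0.66 (SE; adjusted p = 0.102 by edgeR). Cdx1 was at 87.7, 205, 21.8, 18 and 16.4 CPM, with a change of -3.08 ± 0.53 (edgeR adjusted p = 0.102). For both genes each library of 96 h lay above each of 120 h. Both were picked by their p from these libraries, all but 120 h replicate 1, so this order is no separate check. The share of all genes with such an order was not counted. Within 96 h replicate 2 both were carried unevenly, with Fst at 835 and Cdx1 at 371 CPM in the 10 members with few markers, against 167 and 118 CPM in the other 25, which still exceeded each library of 120 h. Wfdc2, a secreted protease inhibitor, was at 22.6, 2.89, 21.8, 120 and 141 CPM, with a change of 3.33 ± 0.58 (edgeR adjusted p = 0.102), but 120 h replicate 1 lay within the range of 96 h.

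The replicate numbers mark batches shared by both times, so the 4 whole libraries were also fitted with the number as a block. This fit called 38 of 3834 genes (0.991%), of which 16 were higher and 22 lower at 120 h. It included the 5 cells of 120 h replicate 1 and left 1 residual degree of freedom, so that the spread came from the other genes and not from each gene's own replicates. The same 4 libraries without the block, a fit added after seeing the data, gave 0 calls by edgeR. There 156 of 3834 genes had an unadjusted p under 0.05, again fewer than the threshold alone would pass. Of the 4 NMP genes tested in the blocked fit, 3 were lower at 120 h. These were Cdx1, Cdx2 (log2 difference -2.43 with an adjusted p of 6.02e-05 in edgeR) and Nkx1-2, the posterior progenitor homeobox gene. Hoxb2, the only Hox gene tested, was also lower. In the other cells the summed NMP level was likewise 907 and 1092 CPM in the libraries of 96 h and 398 to 739 CPM at 120 h, and its part in the members' difference was not tested.

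Of 2 germ-line genes and 4 other early germ cell genes tested in the blocked fit, 1 and 2 were called, each higher at 120 h. Ifitm1, which the other cells also hold, at 334, 173, 1708, 569 and 1037 CPM, had a change of 2.09 and Ifitm3, at 31.1, 109.6, 581, 156 and 360 CPM, one of 2.25 (edgeR adjusted p = 2.33e-16 and 3e-09). In both genes each library of 120 h lay above each of 96 h. That order rests mostly on libraries that the blocked fit used and is no separate check. Tfap2c was called with a change of 1.83 (edgeR adjusted p = 0.00182), and Dppa3 was not, with a change of 1.21 (edgeR adjusted p = 0.25). Of the 9 markers, Dppa5a was called (0.70, edgeR adjusted p = 0.00222). In the same 4 libraries without the block the changes were 2.17 for Ifitm1, 2.38 for Ifitm3 and 1.76 for Tfap2c, with edgeR adjusted p of 0.139, 0.309 and 0.603. In the test that takes the posterior part in place of 120 h replicate 1 and has no block, they were 1.68 ± 0.38 for Ifitm1, 1.95 ± 0.51 for Ifitm3, 1.07 ± 0.51 for Tfap2c, 1.28 ± 0.45 for Dppa3 and 0.95 ± 0.24 for Dppa5a (SE, edgeR adjusted p = 0.245, 0.42, 0.998, 0.81 and 0.402). The Ifitm genes of this locus include similar copies, so reads could be shared among them.

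**Figure D5:**
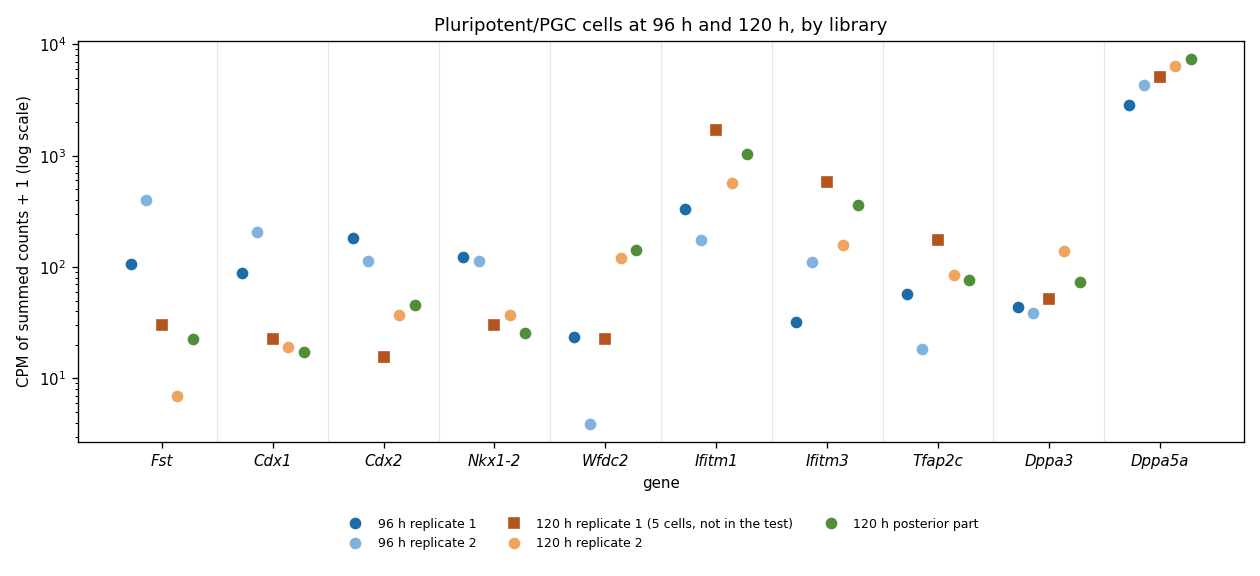
CPM of summed counts + 1 (log axis) of 10 genes in the members of each library at 96 h (blue) and 120 h (brown, orange, green); the square marks the library of 5 cells that the test left out. Fst, Cdx1, Cdx2 and Nkx1-2 are lower and Ifitm1, Ifitm3, Tfap2c, Dppa3 and Dppa5a higher in the 120 h libraries, with 120 h replicate 1 at 50.9 CPM close to the 96 h libraries for Dppa3 and within their range for Wfdc2.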

How the data were processed

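Single-cell 3′ RNA-seq libraries of wild-type mouse stembryos were analysed from the count table and the cell annotation that the authors deposited. The counts are UMI counts per gene and cell, which per the labels and the study's methods came from Cell Ranger 6.0 on mm10 with a modified annotation, followed by filters in Seurat 4.0.2. The deposited annotation also gives each cell's mitochondrial share as a percent, its UMI total and its class. Columns of per-sample values left unused numbered 0.

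Library totals were 24303317 to 117580506 UMIs. Member counts were summed per library (CPM, pseudocount 1 for log2 ratios). Time was tested with edgeR 4.0.16 (R 4.3.3, TMM, filterByExpr) over libraries with at least 10 members, the 2 parts at 120 h counting as 1 sample, and DESeq2 1.42.0 was an alternative. On simulated counts for the 4785 genes of this test, it called 136 of 200 genes changed 4-fold and 7 unchanged genes. The simulated dispersion was 0.1, against 0.053 estimated in the data. Changed genes were drawn only from those with higher summed counts, so the rate does not cover genes of few UMIs. Exact Clopper-Pearson intervals and exact permutation used scipy 1.17.1, and thinning drew 5000 UMIs per cell. The permutation p-value measures the spread between pools. In the main edgeR test that spread was shared in part over genes, with 2 residual and 11 prior degrees of freedom. In the blocked fit, with 1 residual degree of freedom, it came from the other genes.

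Replicate numbers mark batches in the deposited annotation. Over 5496 genes, the deviations of same-numbered whole libraries from their time means correlated with r = 0.178.

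Named genes were the 9 markers and 6 germ-line genes, the 12 highest above the next class (at least 30% of members, 50 CPM), the 6 lowest, the 3 lowest p of the time test as none was called, and up to 4 per list by level in the members, plus features said to be chosen after their values were seen. Some list genes, among them Sox2, Esrrb, Otx2, Fgf5, Foxd3, Pou3f1, Bmp4, Kit, Cxcr4, the Rhox genes, Dazl, Hoxb9, Lin28a, Sall4, Trim71, Acvr2b and endoderm factors, were added for their known roles after values were seen. The members, lists and tests were chosen with earlier results of these data known.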

Additional observations from a re-analysis of the deposited data

Results flagged for a closer look

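The members of 120 h replicate 1 were left out of the gene comparisons for holding 5 cells, yet their summed level of the 6 germ-line genes was 334.3 CPM, against 4.07 CPM in the other cells of that library and 80.8 to 281 CPM in the members of the other 4 libraries. Of the 5 cells, 4 had UMIs of at least 3 germ-line genes before thinning. These 5 cells were deep, with a median of 27353 UMIs against 15024 over all members. After thinning to 5000 UMIs, 3 of the 5 kept at least 1 germ-line gene and 1 kept at least 2. The summed level rests on 137621 UMIs and has no replicate.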

How the results depend on the processing

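The count of genes called between the times was 0. It was 0 also on the 4 whole libraries fitted unpaired, an alternative added after seeing the data, and changed under all other alternatives run. It was 38 with the replicate block on the whole libraries, 13 on whole libraries of at least 10 members without the block, 11 to 43 on leaving out each library in turn (19 without 96 h replicate 1, 11 without 96 h replicate 2, 43 without 120 h replicate 2 and 13 without the posterior part, which is the same fit as the whole libraries), 5 without normalization factors, 28 without a filter on low counts, 3 with DESeq2, and 14 for cells at or under 1.5 times the library mean, which left 96 h replicate 1 under 10 members. With the library of 5 member cells added, chosen after seeing the data, it was 14. Where 1 library was left at a time, it was assumed to vary like the others. Counting that fit once, Fst and Cdx1 passed in 9 of 11 alternatives each (adjusted p 1.59e-11 to 0.332 and 3.24e-06 to 0.148) and Wfdc2 in 8 of 9 (1.04e-05 to 0.128), in the same direction throughout. Ifitm1 and Ifitm3 passed in 5 of 11 each, and Dppa5a and Tfap2c in 1 of 11, the blocked fit. The share of members differed by -1.05 to 0.0519 percentage points on leaving out each library, the last without 96 h replicate 2. Within replicate numbers (replicate block) it differed by -0.48. By construction this equals the unpaired difference of the whole libraries, so it is no separate check of the pairing. Without thinning, 68.5% of the members had a germ-line gene. The count of genes over 2-fold higher in the members stayed between 233 and 355 against 278. A looser filter kept 6 of the 12 highest genes. Depth limits Prdm1, Prdm14, Nanos3 and Dnd1 most, each with at most 40 UMIs in all members. The cause of these changes was not tested.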
